A study of Mus musculus with 6 samples.

Results

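The genes described here are those of the core Reelin signal: Reln, which encodes the secreted ligand Reelin, Vldlr and Lrp8, which encode its receptors (Lrp8 is also known as ApoER2), and Dab1, which encodes the intracellular adaptor. They were taken by symbol from the deposited table, where each symbol belonged to 1 identifier, and are 4 of 34745 genes listed. RNA-seq was done on mouse embryos at embryonic day 12.5, from the MGE (medial ganglionic eminence), a germinal zone of the ventral forebrain where many cortical interneurons are born. There were 3 wild type libraries and 3 Sp9-/- (Sp9 null) libraries, all of mixed CD1, 129S6 and C57BL/6J background, with wild type littermates as controls. The labels do not describe the null allele beyond this, and do not say whether a library came from 1 embryo or from several, so a p-value here speaks only of the spread among these libraries, part of which may be technical.

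Reelin is a large extracellular glycoprotein that guides the placement of migrating neurons. In the early forebrain its best known source is the Cajal-Retzius cell, an early-born neuron of the pallial surface. Reelin binds the lipoprotein receptors VLDLR and ApoER2, which leads Src family kinases to phosphorylate DAB1 on tyrosines. Phosphorylated DAB1 recruits Crk proteins and phosphoinositide 3-kinase and is then removed by a Cullin 5 ubiquitin ligase. The comparison asks whether the transcripts of this signal differ in the MGE in the absence of Sp9, a zinc finger protein that regulates transcription in the ventral forebrain.

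On GRCm38, Reln (ENSMUSG00000042453) lies on the minus strand of chromosome 5 (21884454 to 22344702) and Vldlr (ENSMUSG00000024924) on the plus strand of chromosome 19 (27216484 to 27254231). Lrp8 (ENSMUSG00000028613, 107802261 to 107876840) and Dab1 (ENSMUSG00000028519, 103619359 to 104744844) both lie on the plus strand of chromosome 4. None is on chromosome 2, where Sp9 lies. All 4 are protein-coding in GENCODE M21, whose start and end were the same as in the table. The longest coding transcript had 65 exons for Reln, 19 for Vldlr, 16 for Lrp8 and 15 for Dab1. The Dab1 locus spans 1125.5 kb, against 37.7 kb for Vldlr. The antisense gene Gm10475 shares 246 exon bases with Reln. It had 232 counts over the 6 libraries, and since strand is not stated, reads in the shared bases cannot be assigned securely. The other genes that overlap the 4 loci share 0 exon bases with them.

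Sp family factors bind GC boxes, so the 250 bases before the RefSeq start site (GRCm38.p6) were searched for GGGCGG and its reverse complement CCGCCC, counting every match on either strand. Reln, with the most matches, and Vldlr, with none in this window, are shown because these windows lie wholly outside the annotated gene. Capitals mark the motif, and each sequence reads 5′ to 3′ on the gene's own strand, Reln at chr5:22344706-22344955 and Vldlr, the first of its entries, at chr19:27216234-27216483.
Reln: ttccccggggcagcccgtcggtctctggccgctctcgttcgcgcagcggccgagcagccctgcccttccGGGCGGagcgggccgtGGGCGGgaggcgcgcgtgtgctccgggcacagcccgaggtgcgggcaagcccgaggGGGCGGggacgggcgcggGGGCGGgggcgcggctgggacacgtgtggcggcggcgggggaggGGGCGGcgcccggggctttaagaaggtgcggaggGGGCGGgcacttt
Vldlr: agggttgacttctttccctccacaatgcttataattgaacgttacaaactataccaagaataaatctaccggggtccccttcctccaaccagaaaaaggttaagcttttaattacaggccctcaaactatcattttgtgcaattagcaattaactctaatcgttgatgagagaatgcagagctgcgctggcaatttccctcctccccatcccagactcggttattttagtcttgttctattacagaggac
The Reln window held 6 matches and was 80% G or C. Of 32851 RefSeq windows of this length, 32.7% held at least 1 match and 0.886% held at least 6. The Vldlr window held 0 matches and was 41.6% G or C, against a median of 52.4% over all windows. Among the other entries, the second window of Vldlr and 1 of the windows of Dab1 held 1 match each, and the Lrp8 windows held 0. A match is a description of these letters and does not show binding.

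Library totals ran from 6826447 to 10979280 counts, so that 3 counts were worth 0.273 to 0.439 CPM. CPM is a gene's count scaled to a library of 1000000 counts. Sp9 had 1939, 2700 and 1870 counts in wild type libraries 1, 2 and 3 and 89, 116 and 118 in the null libraries, so its level matched the labels. Summed markers of the MGE (10 genes, among them Nkx2-1 and Lhx6) were at 4100 to 4290 CPM in wild type and 4860 to 4900 CPM in null libraries. They went both ways: Dlx1 was called higher without the block of replicate numbers described below, and with it 3 were called higher and 2, Lhx6 and Gad1, lower. The library numbered 2 of each genotype stood apart from the others on principal component 1, which held 52% of the variance. Mitochondrial genes took 2.2 to 2.28% of counts in wild type libraries, 2.32% in null library 1 and 3.43% and 3.41% in null libraries 2 and 3.

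Levels are first compared between the genes, on the deposited FPKM scale (fragments per kilobase of the gene and per 1000000 counts). Lrp8 was the highest of the 4 genes in all 6 libraries. Its level was 18.3, 15 and 18.1 FPKM in wild type libraries 1, 2 and 3 and 18.3, 14.2 and 18.7 FPKM in null libraries 1, 2 and 3. That is 4.82 to 6.14 times the level of Vldlr and 3.24 to 7.79 times that of Dab1 within a library. The other receptor gene, Vldlr, was at 3.44, 3 and 3.76 FPKM in the wild type and at 2.98, 2.54 and 3.74 FPKM in the null libraries. Dab1 was at 4.23, 1.92 and 3.87 FPKM in the wild type and at 4.09, 2.72 and 5.75 FPKM in the null libraries. Dab1 and Vldlr overlapped in range, with Dab1 the higher in 5 of 6 libraries, so their order did not hold beyond their spread. Reln was at 2.12, 0.362 and 3.61 FPKM in the wild type and at 2.78, 0.305 and 3.95 FPKM in the null libraries. It was the lowest of the 4 in 5 libraries, the exception being null library 3, where it lay above Vldlr.

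The order below Lrp8 depends on the length used. The length behind the deposited FPKM was 26866 bases for Reln, against 23738 bases of merged GENCODE M21 exons and 11699 bases for its longest coding transcript. Per kilobase of that longest transcript, the median over the 6 libraries was 39.1 CPM for Lrp8, 6.62 CPM for Dab1, 5.77 CPM for Vldlr and 5.63 CPM for Reln. On this scale Lrp8 was again highest in all 6 libraries, and Reln was lowest in 3 of them. Per kilobase of merged exons Reln was lowest in all 6, with medians of 4.56 CPM for Vldlr, 4.42 CPM for Dab1 and 2.77 CPM for Reln. The length behind the deposited FPKM was 14282 bases for Vldlr and 8780 for Dab1, against 10068 and 7908 bases of merged exons. The levels of Reln, Vldlr and Dab1 outside the libraries numbered 2 were therefore not put in order.

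**Figure D1:**
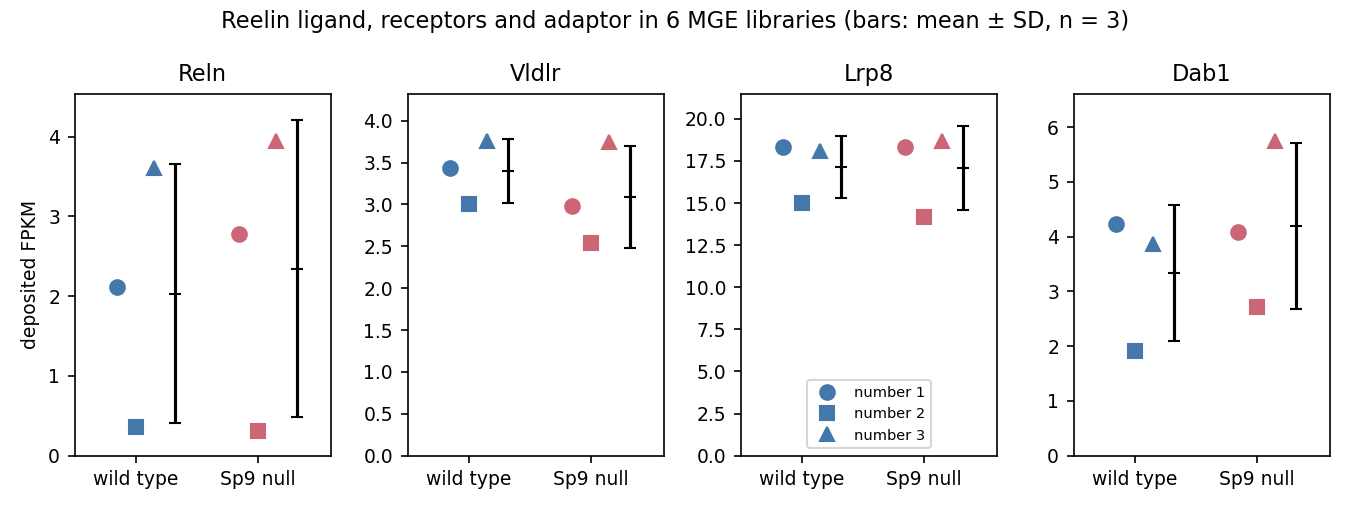
Deposited FPKM (y axis, from 0, a separate scale per gene) of Reln, Vldlr, Lrp8 and Dab1 in the 3 wild type (blue) and 3 Sp9 null (red) libraries, with symbols for the replicate number and bars for mean ± SD. The genotypes overlap for all 4 genes, and the squares of the libraries numbered 2 are lowest in each genotype, at 0.362 and 0.305 FPKM for Reln.

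No member was called between the genotypes. In the edgeR quasi-likelihood test 0 of the 4 had a Benjamini-Hochberg adjusted p under 0.05, and 0 had an unadjusted p under 0.05. Over all genes, 22 of 14929 tested were called, or 0.147%; the count was 2, 11 and 6 without wild type library 1, 2 or 3 and 34 without null library 2. DESeq2 also called 0 of the 4. The CPM ranges of the genotypes overlapped for all 4 genes, while 13% of all tested genes had ranges that did not overlap. All 4 passed the filter on low counts.

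The receptor genes gave the narrowest limits. Lrp8 had 2484, 2322 and 2556 counts in wild type libraries 1, 2 and 3 and 1778, 2221 and 2501 in the null libraries. Wild type averaged 243.7 ± 26.8 CPM and null 242.7 ± 35.0 CPM (SD, n = 3 per genotype). The difference, given throughout as log2 of null over wild type, was 0.01 (SE 0.12, adjusted p = 0.997 in edgeR), and the 95% interval allowed a ratio between 0.832 and 1.22. Vldlr had 468, 467 and 533 counts in the wild type and 291, 398 and 504 in the null libraries. The null values were the lower in pairs 1 and 2, and pair 3 was nearly level. Wild type averaged 48.5 ± 5.50 CPM and null 44.1 ± 8.69 CPM (SD, n = 3 per genotype). The log2 difference was -0.12 (SE 0.15, adjusted p = 0.956 in edgeR), with an interval of the ratio from 0.723 to 1.18. For both receptors a change of more than 1.5-fold in either direction lies outside the interval.

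The balance between the receptors was also compared, since VLDLR and ApoER2 are known to have partly separate roles in neuron placement. The ratio of Vldlr to Lrp8 FPKM was 0.188, 0.2 and 0.208 in wild type libraries 1, 2 and 3 and 0.163, 0.178 and 0.201 in the null libraries. It was lower in the null library of each pair as numbered, but the groups overlapped, with null library 3 (0.201) above wild type library 1 (0.188). The log2 difference was -0.14, with p = 0.3 by an exact permutation test (two-sided), where 0.1 is the smallest that 3 against 3 libraries allow. It moved to -0.068 without null library 1 and to -0.22 without null library 3.

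Dab1, the adaptor gene, had 354, 184 and 337 counts in wild type libraries 1, 2 and 3 and 245, 262 and 476 in the null libraries. Wild type averaged 29.3 ± 10.9 CPM and null 36.7 ± 13.3 CPM (SD, n = 3 per genotype). The log2 difference was 0.35 (SE 0.38, adjusted p = 0.947 in edgeR), with an interval of the ratio from 0.671 to 2.41. Within the replicate numbers, the log2 difference of null over wild type was -0.06 in pair 1, 0.54 in pair 2 and 0.60 in pair 3. Pairs 2 and 3 thus differed in one direction, and pair 1 was nearly level. Null libraries 2 and 3 are also those with the higher mitochondrial share, whose part in the Dab1 values was not tested. Without 1 library the log2 difference of Dab1 was as low as 0.07 (wild type library 2 left out) and 0.04 (null library 3 left out), and it reached 0.55 without wild type library 1 and 0.58 without null library 2, with 0 calls.

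Reln, the ligand gene, varied most. It had 543, 106 and 961 counts in wild type libraries 1, 2 and 3 and 510, 90 and 1001 in the null libraries. Wild type averaged 54.5 ± 43.6 CPM and null 63.0 ± 50.0 CPM (SD, n = 3 per genotype). The library numbered 2 was lowest and the one numbered 3 highest in both genotypes. The log2 difference was 0.22 (SE 1.09, adjusted p = 0.997 in edgeR), and the interval of the ratio ran from 0.176 to 7.70. At this spread a several-fold difference was not detectable without the replicate number in the fit. The ratio of Reln to Dab1 FPKM, from 0.112 to 0.932 over the 6 libraries, had a log2 difference of -0.25 between the genotypes (exact two-sided permutation test, p = 0.8, smallest possible 0.1).

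With the replicate number as a block, 597 genes were called (4% of those tested), but again 0 of the 4 members. In this edgeR fit 2 of the 4, Reln and Dab1, had an unadjusted p under 0.05, against 17.2% of all tested genes. The pairing by replicate number was taken from these same data, and wild type 1 correlated with null 3 (0.353) more than with null 1 (0.335). The blocked values, with their standard errors and intervals, therefore hold only for pairs as numbered. The block reduced the standard error of Reln from 1.09 to 0.09, with a log2 fold change of 0.19 (unadjusted p = 0.0435 and adjusted p = 0.270 in edgeR). The blocked interval of its ratio ran from 1.004 to 1.30. The pairs did not share a direction, with log2 differences of 0.38, -0.20 and 0.16 in pairs 1, 2 and 3. Without pair 1 the blocked value of Reln was 0.07 (adjusted p = 0.789 in edgeR), and by DESeq2 with the block its adjusted p was 1. Dab1 had a blocked log2 fold change of 0.36 (SE 0.11, unadjusted p = 0.00359 and adjusted p = 0.0709 in edgeR), with an interval of the ratio from 1.10 to 1.51. By DESeq2 with the block its adjusted p was 0.776. Without pair 1 the blocked edgeR value of Dab1 was 0.57, with adjusted p = 0.000452. It was 0.30 without pair 2 and 0.23 without pair 3, with adjusted p = 0.508 and 0.640. Of 19 alternatives, only the blocked fit without library 1 of both genotypes called Dab1. For the receptors the blocked log2 difference was -0.12 (SE 0.09, Vldlr) and 0.01 (SE 0.06, Lrp8), with adjusted p = 0.495 and 0.952 in edgeR. The blocked intervals of their ratios were 0.812 to 1.04 and 0.930 to 1.09.

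**Figure D2:**
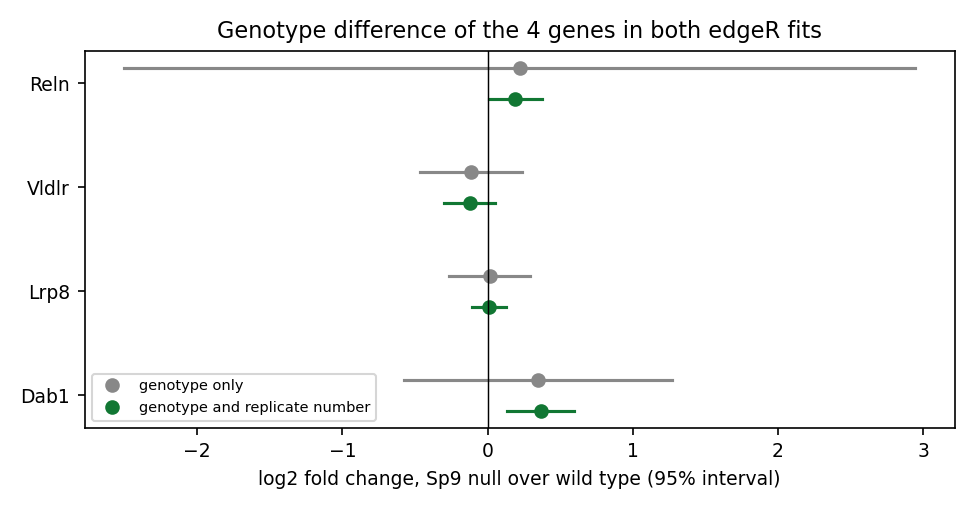
Log2 fold change of Sp9 null over wild type (x axis) for the 4 genes, with 95% intervals, from the edgeR fit of genotype alone (grey) and with the replicate number as a block (green). The interval of Reln narrows from -2.50 to 2.95 without the block to 0.01 to 0.38 with it. That of Dab1 narrows from -0.58 to 1.27 without the block to 0.13 to 0.60 with it. Those of Vldlr and Lrp8 include 0 in both fits. The pairing was taken from these same data, and the pairs of Reln differ in sign.

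For Reln, the libraries numbered 2 differed from the others by more, on the log2 scale, than the genotypes did for any of the 4 genes. On the log2 CPM scale, Reln in library 2 minus the mean of libraries 1 and 3 was -2.9 in wild type and -3.37 in null. Averaged over the genotypes, 26 of 14929 tested genes, Reln included, were as low or lower (0.174%). Dab1 was at -1.06 and -0.79, with 5.64% of genes as low or lower. The receptor genes were both near -0.31 on average, with 19.4% (Vldlr) and 19.3% (Lrp8) of genes as low or lower. The median over all tested genes was 0.01. These values describe the libraries and have no test, because the labels do not say what a number marks.

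Markers of Cajal-Retzius cells moved with Reln. Averaged over the genotypes, 6 of 7 tested markers were lower in the libraries numbered 2 by more than 1 on the log2 scale, against 5.06% of all tested genes, with a median of -2.32. One of the 6, Nhlh2, was at -0.56 in wild type and -4.08 in null. Trp73, which encodes the p73 transcription factor and is a defining marker of these cells, had 62, 8 and 122 counts in wild type libraries 1, 2 and 3 and 105, 15 and 147 in the null libraries. Lhx5, a LIM homeobox gene, had 40, 1 and 55 counts and 34, 1 and 74 counts. The summed level of the 9 listed markers ran from 14.5 to 59.5 CPM in wild type libraries and from 17.1 to 105 CPM in null ones. None of Trp73, Lhx5 or Tbr1 was at 0 in any library. Lhx5 had only 1 count in each library numbered 2, and Tbr1 only 1 in null library 2. Such counts do not show that the cells were present there. Ndnf, a marker in the same list, was at 0.56 and did not share this pattern. Ebf2, too low to be tested, was highest in wild type library 2, with 1, 12 and 3 counts in wild type and 1, 0 and 4 in null libraries. Calb2, also too low to be tested, had 6, 1 and 8 counts in wild type and 3, 1 and 6 in null libraries.

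Several of these markers are also expressed by other cells, Tbr1 by cortical neurons and Lhx1 and Lhx5 by hypothalamic ones. The hypothalamic genes Otp and Hmx3 were at -3.55 and -2.90 on the same scale, and the pallial gene Eomes at -2.01, but Emx2, another pallial gene, was at 0.18. In a list chosen after the libraries numbered 2 were seen to stand apart, all 7 genes of postmitotic neurons were lower there, from -0.23 (Elavl3) to -1.45 (Stmn2), and the 7 progenitor genes lay between 0.05 and 0.48. The 10 MGE genes had a median of -0.03, and endothelial genes, a cell type that also expresses Vldlr, lay between -0.01 and 0.20. The part of these cell types in the Reln and Dab1 values was not tested. In bulk samples, fewer cells of a type and less RNA per cell cannot be told apart.

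With the block, 3 of the 7 Cajal-Retzius markers were called, all higher in the null libraries, against 4% of all tested genes called in either direction. In edgeR with the block the log2 fold change was 0.77 for Trp73 (SE 0.21, adjusted p = 0.0258), 0.93 for Lhx1 and 0.81 for Tbr1, beside the 0.19 of Reln that was not called. Without the block 0 of the 7 were called, 0 of them with an unadjusted p under 0.05. Tbr1 went the other way in pair 2, with 7 counts in wild type library 2 and 1 in null library 2. The rise was not particular to this list. Of 6 tested markers of the LGE (lateral ganglionic eminence) and striatum, 3 were called higher with the block and 0 lower. Whether the Cajal-Retzius markers and the blocked values of Reln and Dab1 are related was not tested.

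**Figure D3:**
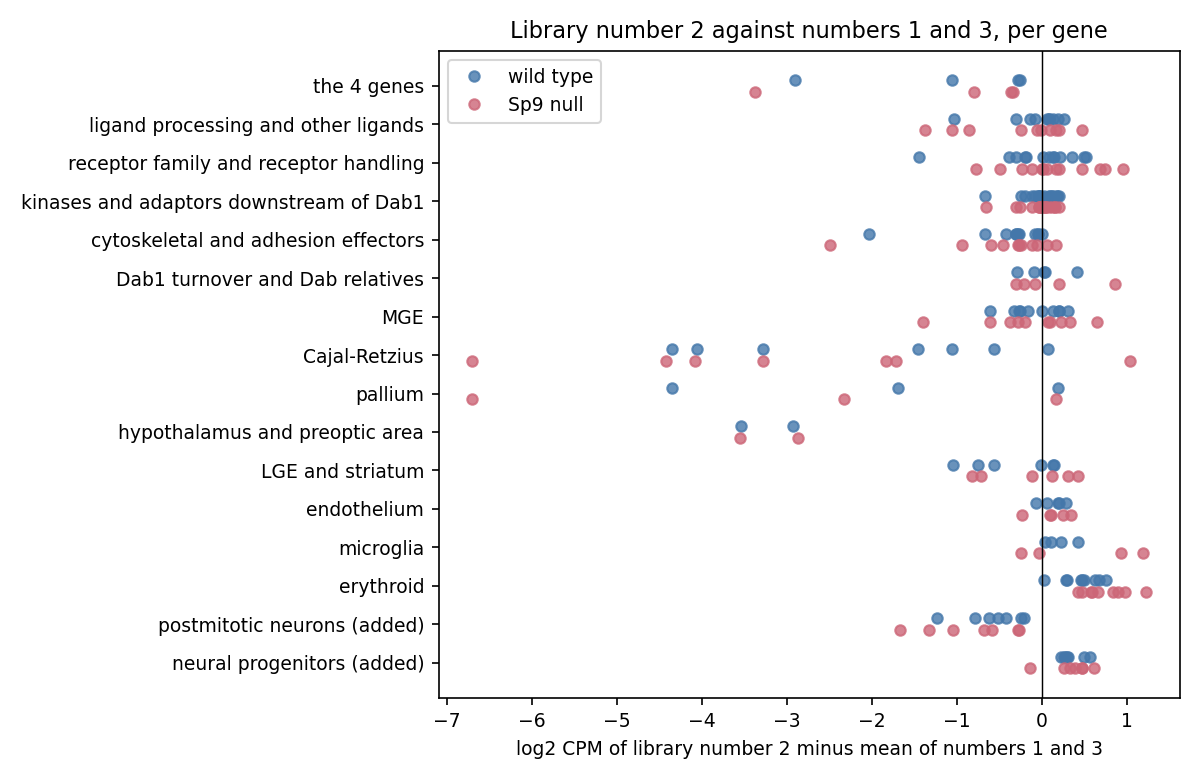
Log2 CPM of the library numbered 2 minus the mean of numbers 1 and 3 (x axis) for each tested gene, in wild type (blue) and Sp9 null (red), by gene list (rows; the last 2 lists were added after the data were seen). Reln is the leftmost pair of points in the first row, at -2.9 and -3.37, on the side where the Cajal-Retzius list has its median of -2.32.

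The genes whose pattern over the 6 libraries was most like that of Reln and of Dab1 were then listed, as a description, since they were picked for that likeness. Likeness was the root mean square difference of log2 CPM after centring each gene, among 14799 other tested genes with a mean of at least 1 CPM. The nearest to Reln were Kif26b, a kinesin family gene (0.16), Trank1 (0.211) and Camk2b, a calcium/calmodulin-dependent kinase subunit gene (0.225). Camk2b had 187, 24 and 234 counts in wild type libraries 1, 2 and 3 and 127, 26 and 218 in the null libraries. The nearest to Dab1 were Parp8 (0.0496), the clustered protocadherin gene Pcdhb19 (0.0652) and Olfm2 (0.0758). Parp8 had 305, 159 and 288 counts in wild type and 231, 232 and 407 in null libraries. Vldlr and Lrp8 spanned 1.48-fold and 1.31-fold over the libraries, too little for such a ranking.

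Other genes of the pathway were then counted from lists, which were chosen with earlier results of these data known. Of 56 tested genes in 5 lists (ligand processing and other ligands, receptor relatives and handling, kinases and adaptors, effectors, and Dab1 turnover), 0 were called by edgeR with or without the block, and 0 by DESeq2. An unadjusted p under 0.05 in edgeR was found for 3 of the 56 without the block, near the share of all tested genes (5.91%). With the block it was found for 14 of the 56, a larger share than that of all tested genes (17.2%). The median log2 difference of the 56 was -0.01, against -0.0046 over all genes tested. The 5 list medians lay between -0.04 and 0.12. In 6 of the 56 (Apoe, Plat, Efnb2, Yes1, Akt1 and Cul5) the genotype ranges did not overlap, against 13% of all genes.

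Among the genes of ligand processing and other ligands, which include ephrins, 3 of 10 tested had such ranges. Apoe, which encodes a lipoprotein that also binds these receptors, was at 18.2, 20.3 and 20.3 CPM in wild type libraries and at 15.1, 15.1 and 13.9 CPM in null ones. Its log2 difference was -0.40 (SE 0.12, adjusted p = 0.635 in edgeR, and 0.0795 with the block). Plat, the tissue plasminogen activator gene, whose product can cleave Reelin, was at -0.25 (SE 0.10, adjusted p = 0.801 in edgeR). The third, the ephrin gene Efnb2, lay higher in the null libraries, at 0.18 (SE 0.08, adjusted p = 0.853 in edgeR). Microglia express Apoe, and 4 of 4 tested microglial markers were called lower with the block, against 4% of all genes called in either direction. Their summed level over 5 listed genes was 26.2 to 30.1 CPM in wild type libraries and 7.21 to 11.6 CPM in null ones. The part of microglia in the Apoe value was not tested. Adamts3, the main Reelin-cleaving protease gene of the embryonic brain, was at 1.73 to 4.39 CPM. Its log2 difference was 0.55 (SE 0.39, adjusted p = 0.904 in edgeR), and its genotype ranges overlapped. Adamts2 was too low to be tested.

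Of 13 tested receptor relatives and handling genes, 0 reached an unadjusted p under 0.05 in the fit without the block. Snx17, a sorting nexin gene for receptor recycling, had a log2 fold change of -0.12 (SE 0.09), and Lrpap1, the receptor chaperone gene, -0.10 (SE 0.11). Among 17 kinase and adaptor genes, Yes1, a Src family kinase gene, was at 42.9, 50.6 and 46.9 CPM in wild type libraries and at 54.8, 55.6 and 55.4 CPM in null ones. Its ranges did not overlap, and the log2 difference was 0.26 (SE 0.09, adjusted p = 0.777 in edgeR, and 0.0680 with the block). Fyn and Src, the kinase genes best known for DAB1 phosphorylation, were at -0.05 (SE 0.07) and -0.15 (SE 0.12). Akt1, a kinase gene downstream of phosphoinositide 3-kinase, was at -0.16 (SE 0.07).

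The 11 effector genes had a median of -0.02. Cdh2, encoding N-cadherin, was at 0.20 (SE 0.10, edgeR adjusted p = 0.879, and 0.0814 with the block), and Cdk5, whose kinase acts in parallel to Reelin, at -0.20 (SE 0.14). Mapt, encoding the microtubule protein tau, stood out for its spread and was chosen after its values were seen. Its level was 261, 65.6 and 280 CPM in wild type libraries and 264, 47.4 and 286 CPM in null ones, low in the libraries numbered 2 like Reln. Of the genes for DAB1 removal, Cul5 was at 0.17 (SE 0.08) and Socs7, a substrate receptor, at -0.20 (SE 0.10), with adjusted p = 0.853 and 0.897 in edgeR. Without pair 1, the blocked fit called 6 of the 56 genes, beside 1193 of all genes tested (7.89%): Map1b and Cdh2 were higher (0.33 and 0.30), and Efnb3, Pafah1b3, Snx17 and Socs7 lower (-0.26, -0.27, -0.24 and -0.29).

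**Figure D4:**
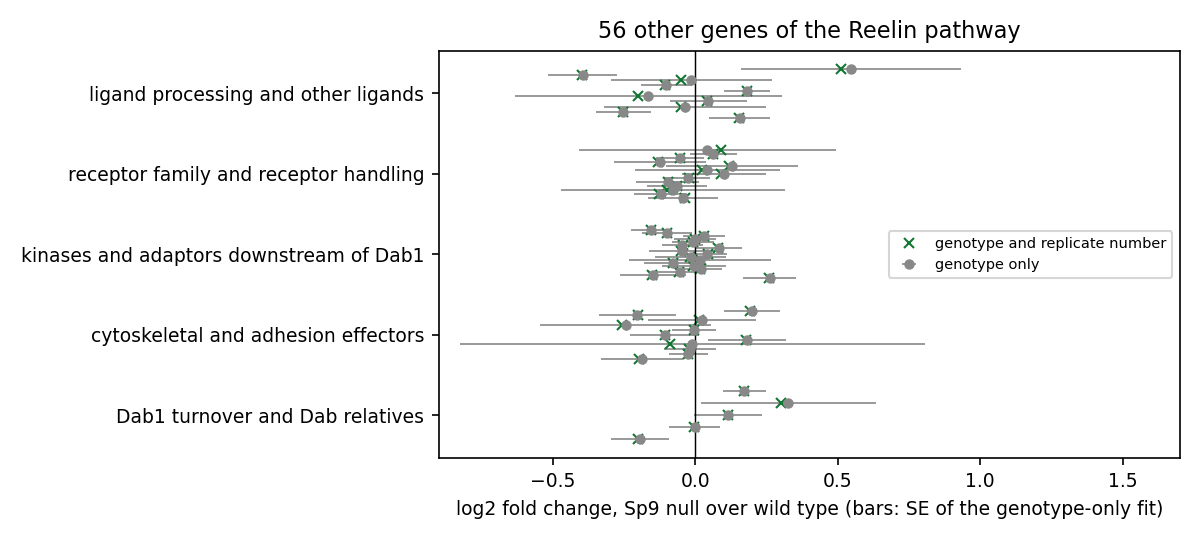
Log2 fold change of Sp9 null over wild type (x axis) for the 56 other pathway genes in 5 lists (rows), from the fit of genotype alone (grey points, bars for SE) and with the replicate block (green crosses). The list medians lie between -0.04 and 0.12 and 0 genes were called in either fit; the widest bar is that of Mapt.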

How the data were processed

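The table deposited by the authors gives, per the file headers, a whole-number read count and an FPKM value per gene and library. TopHat, Cufflinks 2.1.1 and GRCm38.p4 are named, without their roles, per the submitters' processing notes. Neither the counting program nor the strandedness is given in the sources used here. The number of unused sample columns was 0. Counts were tested with edgeR 4.0.16 in R 4.3.3 (TMM scaling, default expression filter, robust quasi-likelihood test, two-sided, genotype the only term), with Benjamini-Hochberg adjustment over 14929 genes and a threshold of 0.05. A standard error is the size of the log2 difference divided by the square root of F. DESeq2 1.42.0 and limma 3.58.1 (on log2 FPKM with a pseudocount of 1 or 0.1) were alternatives, with other scalings, filters and left-out libraries. The fits were tested on simulated data. For the blocked fit these were drawn with the replicate numbers as pairs, so they do not test the pairing.

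Libraries are numbered 1 to 3 in each genotype. Across genes, departures from the genotype's mean correlated by 0.335, 0.729 and 0.535 between same-numbered libraries, all over 0.1, so numbers were treated as pairs; this pairing comes from the data, not the labels. Wild type 1 correlated with null 3 (0.353) more than with null 1, wild type 3 with null 1 by 0.229, and the remaining combinations were below 0. Replicates of a genotype differed by more than counting noise (chi-square per degree of freedom from 3.28 to 21.9).

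Named pathway genes are, per list, those called or the 2 with the smallest unadjusted p. Efnb2, Mapt, Fyn, Src, Adamts2, Adamts3 and the genes called without pair 1 were added afterwards. Members and lists were chosen with earlier results of these data known. Promoter sequences are from RefSeq (GRCm38.p6), with entries for all 4 genes.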

Additional observations from a re-analysis of the deposited data

How the results depend on the processing

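Over 19 alternatives the log2 fold change ranged from -0.42 to 0.93 for Reln, -0.28 to 0.0037 for Vldlr, -0.07 to 0.12 for Lrp8 and 0.04 to 0.58 for Dab1, with 0 calls for Reln, Vldlr and Lrp8. Reln was reversed without wild type replicate 2 (-0.27) and without null replicate 3 (-0.42), and Vldlr without null replicate 2 (0.0037). Lrp8, near 0, was reversed with library totals alone (-0.0065), in limma on FPKM with a pseudocount of 1 (-0.0097) or 0.1 (-0.0104), without wild type replicate 2 (-0.071), null replicate 1 (-0.025) or null replicate 3 (-0.058), and in the blocked fit without pair 3 (-0.020); without null replicate 2 it was at 0.12. Dab1 passed only with the replicate block and without pair 1 (0.57, adjusted p = 0.000452, against 0.0709 with all pairs), which made the count of called members 1 instead of 0 and that of pathway genes 6 instead of 0. The replicate block changed no other call of the members or the pathway genes. The Reln to Dab1 ratio ranged from -0.87 to 0.62 without 1 library and changed sign without wild type replicate 3 (0.29), without null replicate 2 (0.62) and without both libraries numbered 2 (0.00057), an alternative chosen after seeing the data; there Reln was at 0.26, Dab1 at 0.31, Vldlr at -0.07 and Lrp8 at 0.04, with 0 calls among them. The count over all genes was 22, and 65 with no filter, 89 by DESeq2, 36 and 38 by limma, 89 without both libraries numbered 2, 597 with the replicate block, 158 by DESeq2 with the block, 2, 11 and 6 without wild type library 1, 2 or 3, 34 without null library 2, and 1193, 126 and 219 with the block without pairs 1, 2 and 3. The cause of these differences was not tested. Reln, with 90 and 106 counts in the libraries numbered 2, is the member most limited by depth there.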
